A study of Arabidopsis thaliana with 12 samples.

Results

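Glutamate receptor-like (GLR) genes and cation/H+ exchanger (CHX) genes were examined in rosette leaves of Arabidopsis that had been mechanically wounded 5 min earlier. Spots were chosen by gene symbol, from 19 prefixes of ion channel, pump and exchanger families, among the 9335 of 22575 spots that the platform annotation gives exactly 1 gene. This found 13 spots, each the sole spot of its gene: 7 GLR genes, 5 CHX genes and HAT2, whose symbol shares the letters but which encodes a homeodomain-leucine zipper transcription factor and is described apart. No spot carried a symbol of the other 16 prefixes, among them those of the cyclic nucleotide-gated channels, the autoinhibited calcium pumps and the plasma membrane proton pumps, so these families were not analysed here. Of the 12 transport genes, 9 passed a filter on the deposited log ratios and were tested, namely 5 GLR and 4 CHX genes.

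The samples were leaves crushed with a hemostat and taken after 5 min, and leaves of plants that were not wounded. All plants were soil-grown Columbia-0 (Col). Each of 3 biological replicates was a pair of pools, 1 wounded and 1 not wounded, labelled with Cy3 and Cy5 and hybridised together on 4 two-colour arrays, with a dye swap, which gave 12 arrays. On 6 of them, the Cy5-wounded arrays, the wounded pool carried Cy5, and on the other 6, the Cy3-wounded arrays, it carried Cy3. The log2 ratio (wounded over not wounded) of the processed signals was averaged over the 4 arrays of a replicate. These 3 values were tested against 0 with limma, and p-values were adjusted by the Benjamini-Hochberg procedure across 20072 genes and unnamed spots. A pool holds every cell type of the rosette, so a smaller share of a cell type and less RNA per cell cannot be told apart.

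Plant glutamate receptor-like proteins are relatives of the glutamate-gated channels of animal synapses. They form cation channels that open on binding amino acids and let calcium into the cytosol, and they fall into several clades. GLR3.3 and GLR3.6 are the best known in leaves, since electrical signals that travel from a wounded leaf to its neighbours, and the jasmonate response in those neighbours, depend on them. CHX proteins exchange potassium or another monovalent cation for protons across the plasma membrane or internal membranes. CHX20 is the member known from guard cells, where it takes part in stomatal opening.

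Of the 9 tested transport genes, GLR3.5 was higher in wounded leaves, CHX20 was lower, and 7 missed the threshold of 0.05 for the adjusted p. Over all 20072 genes and spots, 14.5% passed this test, 7.25% higher and 7.24% lower, so that a member called in each direction is near the background. At an unadjusted p under 0.05 2 members were higher, GLR3.5 and CHX16, and 1 was lower, CHX20, beside 16.6% of all genes and spots higher and 16.4% lower (32.9% in all). None of the 9 was changed 2-fold at an unadjusted p of at most 0.01, a threshold that 0.777% of all genes and spots passed. The median log2 ratio of the 9 genes was 0.00, as was that of all genes and spots, and their median absolute log2 ratio was 0.06, beside 0.13 for all. The log2 ratio had the same sign in all 3 replicates for 3 of the 9, namely GLR3.5, CHX16 and CHX20, beside 56% of all genes and spots.

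**Figure D1:**
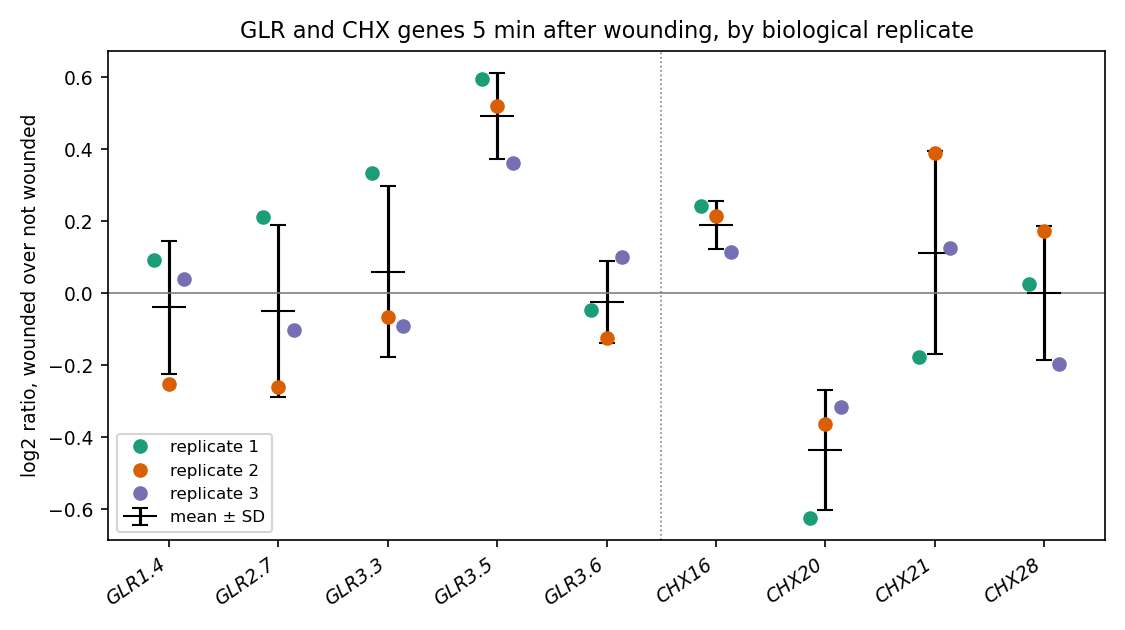
Log2 ratio of wounded over not wounded for the 9 tested genes, with GLR genes left and CHX genes right of the dotted line. Each point is a biological replicate (mean of 4 arrays) and the bars give the mean and SD over 3 replicates. All 3 points of GLR3.5 lie between 0.36 and 0.60, all 3 points of CHX20 lie between -0.62 and -0.32, and 6 of the other 7 genes have points on both sides of 0.

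GLR3.5 (AT2G32390), a channel of the third GLR clade that is known from chloroplasts and mitochondria, was higher in wounded leaves. Its signal averaged 382, 369 and 300.0 in the wounded pools of replicates 1, 2 and 3, against 253, 257 and 233 in the not wounded pools. Every wounded pool was above every not wounded pool, so the groups did not overlap in these means over both dyes. How many of all genes and spots also lack overlap was not counted. On the Cy3-wounded arrays alone the signals overlapped, at 225 to 337 in the wounded and 246 to 296 in the not wounded sample. The log2 ratios of the 3 replicates were 0.60, 0.52 and 0.36, with a mean of 0.49 ± 0.12 (SD, n = 3), a fold change of 1.41 and an adjusted p of 0.022 from limma. The 95% interval of the mean ran from 0.31 to 0.68. The ratio was above 0 on 10 of 12 arrays. It depended on the dye: the mean was 0.89 on the Cy5-wounded arrays, where it varied little, with a range of 0.79 to 0.98, and 0.10 on the Cy3-wounded arrays, where it ranged from -0.17 to 0.33. GLR3.5 did not pass the test on the Cy3-wounded arrays alone (adjusted p = 0.59 from limma), without replicate 2 (0.12) or without replicate 3 (0.059). Its neighbour on chromosome 2 is another GLR gene, GLR5, and whether the probe takes signal from it was not tested.

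GLR3.3 (AT1G42540) and GLR3.6 (AT3G51480), the pair linked to wound signals between leaves, did not pass the test. The signal of GLR3.3 averaged 451, 315 and 261 in the wounded pools of replicates 1, 2 and 3, against 358, 329 and 277 in the not wounded pools. Replicate 1 was higher after wounding and the other 2 were slightly lower, and the groups overlapped. Its log2 ratios were 0.33, -0.07 and -0.09, with a mean of 0.06 ± 0.24 (SD, n = 3; limma gave an adjusted p of 0.74) and a 95% interval of -0.22 to 0.33. For GLR3.6 the signal averaged 222, 214 and 200.3 in the wounded pools, against 230, 234 and 187 in the not wounded pools. Here the groups overlapped as well, and replicate 3 was the one with the higher wounded signal. The log2 ratios of GLR3.6 were -0.05, -0.12 and 0.10, with a mean of -0.02 ± 0.11 (SD, n = 3; limma gave an adjusted p of 0.84) and a 95% interval of -0.21 to 0.16. The interval of GLR3.3 reached 0.33 on the log2 scale and overlapped that of GLR3.5, which began at 0.31. GLR3.3 and GLR3.5 were not tested against each other. The intervals of GLR3.3 and GLR3.6 rest on means over the dyes and do not hold the spread between them. By dye, GLR3.3 averaged 0.51 on the Cy5-wounded and -0.39 on the Cy3-wounded arrays, and GLR3.6 averaged 0.55 and -0.60. Changes that an incomplete cancelling of the dyes would hide were not tested. In means over both dyes, the lowest replicate of GLR3.5 (0.36) lay above the highest of any other tested GLR gene, replicate 1 of GLR3.3 (0.33). GLR3.5 was set apart by these same values, so this order is no added support. On the Cy3-wounded arrays the order did not hold, with -0.16 in replicate 3 of GLR3.5 and 0.05 in replicate 1 of GLR3.3.

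GLR1.4 and GLR2.7 belong to the other clades. GLR1.4 (AT3G07520), a channel that methionine opens when it is expressed in frog oocytes, had a signal of 353, 298 and 316 in the wounded pools, against 330, 355 and 307 in the not wounded pools. Replicate 2 was lower after wounding and the other replicates were slightly higher, with log2 ratios of 0.09, -0.25 and 0.04 and a mean of -0.04 ± 0.19 (SD, n = 3; adjusted p = 0.79 from limma). Averaged over replicates its ratio was -0.02 on the Cy5-wounded arrays and -0.06 on the Cy3-wounded ones, but within replicates the dyes differed in both directions, with -0.43 and -0.07 in replicate 2 and 0.34 and -0.26 in replicate 3. GLR2.7 (AT2G29120) had a signal of 250 in the wounded pool of replicate 1, against 216 in its not wounded pool, but was lower after wounding in the other replicates, with 187 and 160 in the wounded pools against 224 and 172 in the not wounded pools. Its log2 ratios were 0.21, -0.26 and -0.10, and the mean was -0.05 ± 0.24 (SD, n = 3; adjusted p = 0.78 from limma). As in GLR3.3, replicate 1 was the single replicate above 0. With 95% intervals of -0.27 to 0.19 for GLR1.4 and -0.33 to 0.23 for GLR2.7, small changes of either sign were not detectable.

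GLR2.2 (AT2G24720) and GLR2.8 (AT2G29110) were dim, did not pass the filter and were not tested. The signal of GLR2.8 was below the dim limit, the level under which 95% of the signals lie at spots whose deposited ratio is 0 (81 to 124 depending on the array), on 12 of 12 arrays in both the wounded and the not wounded sample. Its deposited ratio was 0 on all 12 arrays. GLR2.2 was below the limit on 12 arrays in the wounded sample and on 11 in the not wounded sample, with a deposited ratio of 0 on 10. For both, the dye with the higher signal was always Cy5, with means of 73.0 in Cy5 and 24.1 in Cy3 for GLR2.2, and of 69.3 and 17.2 for GLR2.8, so no direction after wounding is given. GLR2.8 lies between GLR2.9 and GLR2.7 on chromosome 2, a tandem group whose members take part in the calcium signal of pattern-triggered immunity, and GLR2.2 lies next to GLR2.3. Whether probes of such close copies share signal was not tested.

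**Figure D2:**
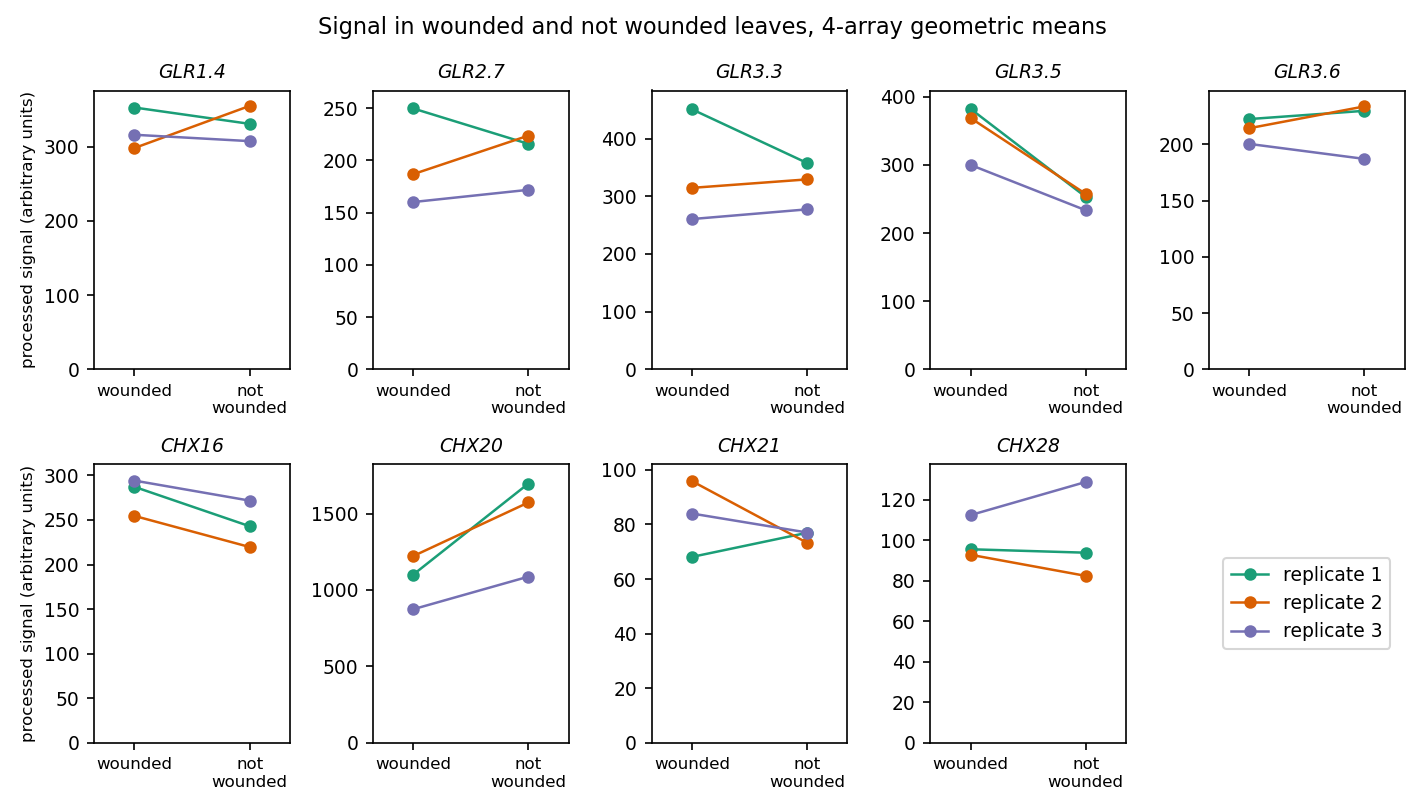
Processed signal (arbitrary units, geometric mean of 4 arrays) of the 9 tested genes in the wounded pool (left in each panel) and the not wounded pool (right), joined within each biological replicate, with every axis from 0. The wounded pool is the higher one in all 3 replicates for GLR3.5 and, by less, for CHX16, and the lower one in all 3 for CHX20, while the replicates of the other 6 genes run in both directions.

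CHX20 (AT3G53720), the guard cell exchanger, was lower in wounded leaves. Its signal averaged 1100.0, 1221 and 874 in the wounded pools of replicates 1, 2 and 3, against 1696, 1572 and 1087 in the not wounded pools. Within each replicate the wounded pool was the lower one, but the pools differed between replicates so that the groups overlapped: the not wounded pool of replicate 3 was below the wounded pools of replicates 1 and 2. The log2 ratios were -0.62, -0.36 and -0.32, with a mean of -0.43 ± 0.17 (SD, n = 3), a fold change of 0.740 and an adjusted p of 0.037 from limma. The 95% interval of the mean was -0.65 to -0.22. Of the 12 transport genes CHX20 was the sole one with the same direction on 12 of 12 arrays, where its log2 ratio ranged from -0.86 to -0.13 with a median of -0.45. It averaged -0.63 on the Cy5-wounded arrays and -0.24 on the Cy3-wounded ones, so the direction held in both dyes. The call did not hold on the Cy3-wounded arrays alone (adjusted p = 0.15 from limma), without replicate 2 (0.13), without replicate 3 (0.084) or with no filter on dim spots (0.052).

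CHX16 (AT1G64170), of the same family, moved the other way by a smaller amount that did not pass the test. Its signal averaged 287, 255 and 294 in the wounded pools, against 243, 220 and 272 in the not wounded pools. The wounded pool was the higher one in each replicate, while the groups overlapped across replicates. The log2 ratios were 0.24, 0.21 and 0.11, with a mean of 0.19 ± 0.07 (SD, n = 3; unadjusted p = 0.027 and adjusted p = 0.10 from limma) and a 95% interval of 0.03 to 0.35. The sign of the array ratios followed the dye, however: it was below 0 on 6 of 6 Cy5-wounded arrays (mean -0.14) and above 0 on 6 of 6 Cy3-wounded arrays (mean 0.51).

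CHX21 (AT2G31910) and CHX28 (AT3G52080) were measured close to the dim limit. CHX21, a close relative of CHX23 that acts with it in pollen tube guidance, had a signal of 68.1, 95.9 and 84.0 in the wounded pools, against 76.9, 73.3 and 77.0 in the not wounded pools. Wounded signals were below the dim limit on 8 arrays and not wounded signals on 10. Its log2 ratios were -0.18, 0.39 and 0.12, the widest spread among the tested members, with a mean of 0.11 ± 0.28 (SD, n = 3; adjusted p = 0.56 from limma). For CHX28 the signal averaged 95.5, 92.8 and 112 in the wounded pools, against 93.8, 82.4 and 129 in the not wounded pools, and was below the dim limit on 7 arrays in each sample. The mean log2 ratio of CHX28 was 0.00 ± 0.19 (SD, n = 3; adjusted p = 0.997 from limma), with 1 replicate below 0 (-0.20) and the other two above (0.03 and 0.17). The 95% intervals were -0.20 to 0.42 for CHX21 and -0.23 to 0.23 for CHX28.

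CHX23 (AT1G05580) was not tested, since its deposited ratio was 0 on 6 of 12 arrays and, in replicate 1, on all 4. Its signal differed more between replicates than between wounded and not wounded leaves. In the wounded pools it averaged 34.4, 162 and 44.3 in replicates 1, 2 and 3, and in the not wounded pools it averaged 24.5, 179 and 46.3. The means of replicate 2 were thus the high ones in both conditions, but its arrays differed widely for the same pools and dyes. On its Cy5-wounded arrays the wounded and not wounded signals were 82.7 and 28.2 on 1 array and 286 and 231 on the other. Across all replicates, both samples were under the dim limit on 9 of 12 arrays.

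The array ratios moved with the dye. In 6 of the 9 tested genes the mean ratio had opposite signs in the 2 dye orientations. On average over the 12 arrays, Cy5 was the brighter dye for the 5 tested GLR genes, by 0.02 in GLR1.4 to 0.58 in GLR3.6 on the log2 scale, and Cy3 was the brighter one for the 4 tested CHX genes, by 0.19 in CHX20 to 0.92 in CHX21. Outside these genes the families did not divide by dye. The log2 of Cy5 over Cy3 was 1.49 for CHX23 and -0.72 for ATGLR1.2, a GLR gene outside the members. It was 1.60 for GLR2.2 and 2.01 for GLR2.8. The ratios of single arrays followed the dye over all tested spots as well. Arrays were paired within a biological replicate only, so both arrays of a pair held the same RNA pools. The median Pearson r across tested spots, which are not independent replicates, was -0.73 in 12 pairs with swapped dyes. It was 0.95 in 6 pairs with the same dyes. Since each replicate holds both orientations equally, a dye effect that is the same in both cancels in its mean, and how far it did so here was not tested.

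**Figure D3:**
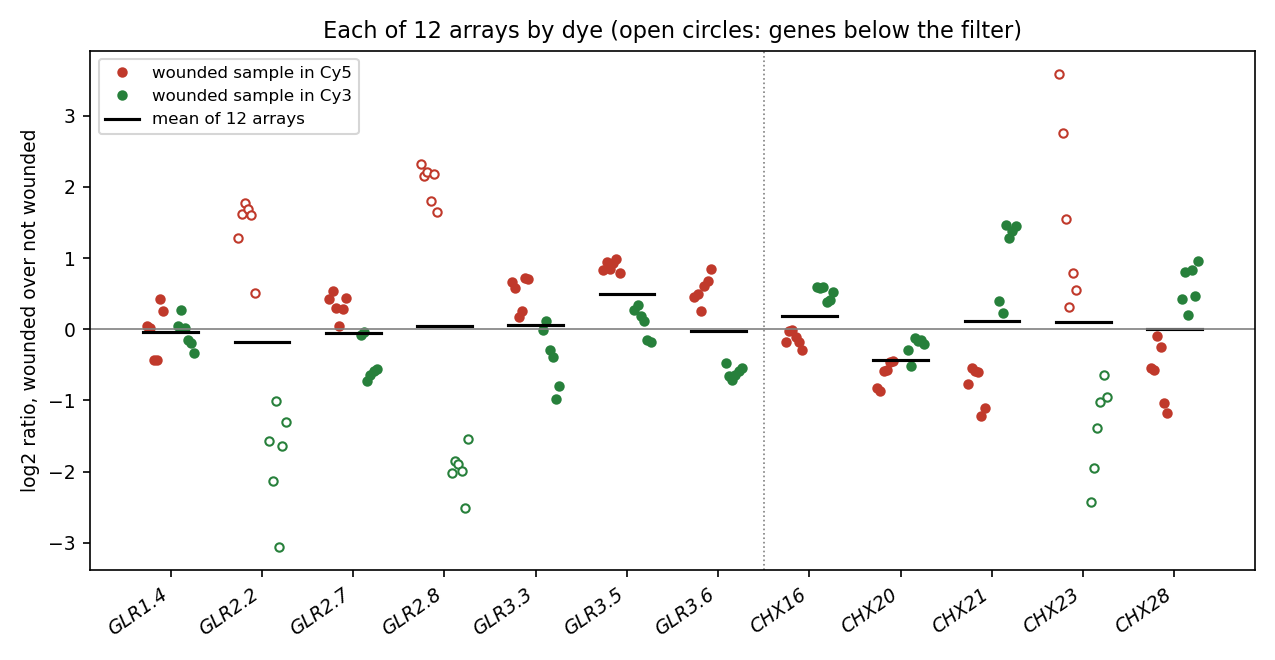
Log2 ratio of wounded over not wounded on each of 12 arrays for the 12 transport genes, in red where the wounded sample carried Cy5 and in green where it carried Cy3, with the mean of all 12 arrays as a line. Open circles mark GLR2.2, GLR2.8 and CHX23, which were not tested. All 12 points of CHX20 lie below 0 and 10 of 12 points of GLR3.5 lie above it, while the colours of most other genes lie on opposite sides of 0.

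Other transport genes were taken from a list of symbols for proton pumps and for metal, nitrate, ammonium, phosphate, sulphate and water transporters. Anion channels, potassium channels and further families were on the list too. It gave 7 named spots of transport genes, all of VHA, MTP, NRAMP or NRT genes, and none of the other listed families. Of the 7, 6 were tested and 0 passed in limma at 0.05, whether the p was adjusted or not. Their median log2 ratio was 0.01, beside 0.00 for all genes and spots. VHA-A1, VHA-A2 and VHA-A3, which encode subunit a of the vacuolar-type proton pump at the trans-Golgi network and the vacuole, had log2 ratios of 0.09, 0.01 and 0.02, with SDs of 0.06, 0.13 and 0.18 over 3 replicates. MTP11, a manganese transporter, had -0.08 ± 0.11, the metal tolerance protein gene MTPA1 had 0.16 ± 0.09 and NRAMP5, of a family of metal transporters, had 0.01 ± 0.12 (SD, n = 3 each). The signals of MTPA1 and NRAMP5 were below the dim limit on most arrays, on 8 and 9 of 12 in the wounded sample and on 11 and 8 in the not wounded sample. The high-affinity nitrate transporter gene NRT2.5 was dim, did not pass the filter and was not tested. The list also caught PIP and PIPK11 by their letters, which are not transporters and are not counted.

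HAT2 (AT5G47370), found by the letters of its symbol, had a signal of 936, 882 and 718 in the wounded pools, against 1154, 944 and 756 in the not wounded pools. It was lower in all 3 replicates, but the mean of -0.16 ± 0.13 on the log2 scale (SD, n = 3) did not pass the test (adjusted p = 0.21 from limma).

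**Figure D4:**
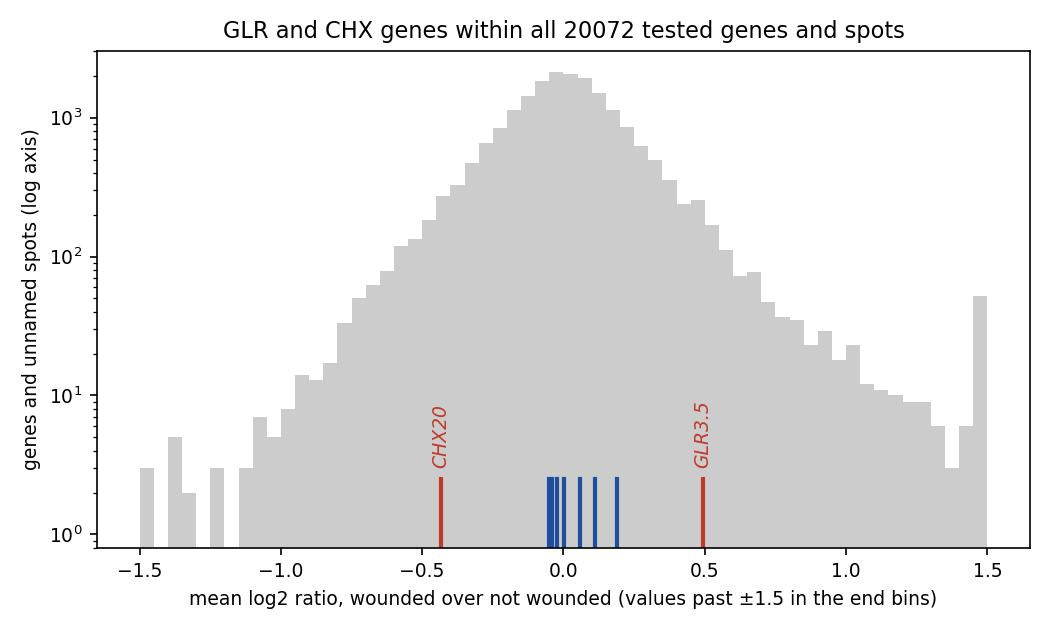
Histogram of the mean log2 ratio of all 20072 tested genes and unnamed spots (grey, log count axis, values past the axis in the end bins) with the 9 tested transport genes as ticks, red where the adjusted p was under 0.05 and blue otherwise. CHX20 at -0.43 and GLR3.5 at 0.49 lie in the flanks of the distribution and the other 7 lie between -0.05 and 0.19.

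By size, the ratio of GLR3.5 was larger than that of 93.1% of all tested genes and spots in absolute value and that of CHX20 larger than that of 90.6%. CHX16 followed at 63.4%, and the other 6 lay between 0.219% (CHX28) and 43.6% (CHX21). The median SD over replicates was 0.19 for the 9 genes, beside 0.12 for all genes and spots. Of 16 listed marker genes of the rosette leaf, 4 had a named spot, and none of their signals lay under the dim limit. The light-harvesting genes LHCB4.1 and LHCB4.2 did not pass the test, with log2 ratios of -0.03 and -0.10, while RCA, which encodes Rubisco activase, was lower (-0.45, adjusted p = 0.041 from limma) and PORB, a protochlorophyllide reductase gene, higher (1.21, adjusted p = 0.015 from limma). None of the 6 listed guard cell markers had a named spot, nor had any of 3 for phloem companion cells or 6 for roots, so whether a change in the share of these cells goes with CHX20 or GLR3.5 was not tested.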

How the data were processed

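Two-colour Agilent 60-mer oligonucleotide arrays were hybridised with cRNA of wounded and not wounded leaves. The authors scanned them and used Agilent Feature Extraction 8.1, and the deposited intensity of each dye is background-subtracted and dye-normalized, scaled on housekeeping genes per the methods. The authors also deposited log10 ratios of Cy5 over Cy3, limited to 2 in size and equal to 0 at many but not all dim spots, which served for the filter and as an alternative. For 1 array of replicate 3 the title and the channel label give the wounded pool different numbers, and the array was placed by its title. Spot flags were not used here. A gene or spot was tested if no dye-swap pair, of 6, had a deposited ratio of 0 on both arrays. Log2 ratios were averaged per biological replicate and per gene, and tested with limma 3.58.1 in R 4.3.3 (lmFit, eBayes, n = 3). The number of replicates limits precision, and low signals add noise. The study's p came from Rosetta Resolver, which was not used here. Gene names were updated through Entrez identifiers with the gene table of TAIR10.1 (9317 of 9335 spots matched). The fit was tested on simulated data in which each spot had the same dye effect in all replicates, so that it cancelled. A dye effect that differs between replicates was not simulated. The members and lists were chosen with earlier results of these data known. Every called member was to be named, and with 12 transport genes the others were named too. Alternatives covered normalization, filters, an offset, dye orientation, replicates and arrays left out, replication units, pairing, spots, variance model and thresholds.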

Additional observations from a re-analysis of the deposited data

How the results depend on the processing

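Of the 9 tested transport genes, 1 was higher (GLR3.5) and 1 lower (CHX20) at an adjusted p under 0.05. Without 1 replicate, 0 to 1 were higher and 0 to 1 lower, the 0 without replicate 2 or replicate 3, where 190 and 554 of all genes and spots were called instead of 2909. With the channels unpaired (no replicate block) 0 were higher and 0 lower, but 27 of all 20072 genes and spots were called. With the threshold of at least 2-fold and an unadjusted p of at most 0.01, 0 were higher and 0 lower, beside 156 of all. With no filter on dim spots 0 were lower. Settings with more members called had more calls among all genes and spots too. With the Cy5-wounded arrays alone 2 were higher (GLR3.5 and GLR3.6) and 2 lower (CHX20 and CHX21), beside 29.8% of all called. With the Cy3-wounded arrays alone 3 were higher (CHX16, CHX21 and CHX28) and 1 lower (GLR3.6), beside 35.3%. GLR3.6 and CHX21 were thus called in opposite directions in the 2 dye orientations. With the 12 arrays fitted singly 2 were higher, beside 30.6%. The count was also 2 without adjustment of the p, beside 32.9%. Of 18 alternatives run for single genes, 10 could change a ratio, and GLR3.5 and CHX20 kept their direction in these 10. GLR3.5 passed under 14 and CHX20 under 13 of the 18. Log2 ratios of genes that did not pass changed sign in some. On the Cy5-wounded arrays alone, GLR2.7 had 0.34, GLR3.6 0.55, HAT2 0.043, CHX16 -0.14, CHX21 -0.81 and CHX28 -0.61, and on the Cy3-wounded arrays alone GLR3.3 had -0.39. With 1 replicate left out, GLR1.4 ranged from -0.11 to 0.066, GLR2.7 from -0.18 to 0.054, GLR3.3 from -0.078 to 0.13, GLR3.6 from -0.086 to 0.026, CHX21 from -0.026 to 0.26 and CHX28 from -0.085 to 0.099. GLR3.6 had 0.0036 with loess. CHX28, whose mean was closest to 0, had -0.0045 with medians set to 0, -0.013 with loess, -0.0077 with 50 added to both signals and -0.041 without the array of the differing label. The causes were not tested. Low signal over background limits what can be said of CHX21, CHX23, CHX28, GLR2.2 and GLR2.8.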

Other observations

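ATGLR1.2, another glutamate receptor-like gene, has a spot but was not among the members because its annotated symbol starts with other letters, and it was picked after the symbols were read. Its signal averaged 81.4, 73.4 and 93.2 in the wounded pools of replicates 1, 2 and 3, against 71.0, 66.2 and 81.7 in the not wounded pools. The wounded pool was the higher one in 3 of 3 replicates, with log2 ratios of 0.20, 0.15 and 0.19 and a mean of 0.18 ± 0.02 (SD, n = 3; unadjusted p = 0.025 and adjusted p = 0.10 from limma), so that it did not pass the test. The small SD holds only after averaging over the dyes. In replicate 3 the log2 ratio was -1.38 on the Cy5-wounded arrays and 1.75 on the Cy3-wounded ones, and signals lay under the dim limit on 10 of 12 arrays in the wounded sample and on 9 of 12 in the not wounded one. The direction of ATGLR1.2 after wounding is therefore uncertain.

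Replicate 3 had the widest gap between the dye orientations in 8 of the 9 tested transport genes, the exception being CHX20, and in 59.6% of all tested spots. GLR3.3 had a log2 ratio of 0.71 on the Cy5-wounded and -0.89 on the Cy3-wounded arrays of replicate 3, and of 0.62 and 0.05 in replicate 1. GLR3.5 had 0.89 on the Cy5-wounded arrays of each of the 3 replicates, but 0.30, 0.15 and -0.16 on the Cy3-wounded arrays of replicates 1, 2 and 3.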
